A study of Homo sapiens with 9 samples.

Results

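The ERBB receptors and their EGF-like ligands were examined in SW480 human colorectal carcinoma cells and in clones grown from them. The members were all probe sets of the deposited arrays that the platform annotation assigns to exactly 1 symbol on a list of 8 genes. This gave 28 of the 54675 probe sets, over 7 genes: the receptors EGFR, ERBB2 and ERBB3, with 17 probe sets, and the ligands EREG, TGFA, HBEGF and BTC, with 11. The remaining gene of the list, a further ligand, was not analysed here.

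The parent was SW480/EGFP, the SW480 line carrying EGFP. SCP51 and SCP58 were each grown from a single cell of that line, so each is 1 clone, labelled high metastatic (SCP51) and low metastatic (SCP58) after orthotopic implantation into mice. All 3 groups were grown in the same serum-containing medium with penicillin and streptomycin, with no further treatment named, and each had 3 biological replicates, 9 Affymetrix arrays of total RNA in all. The labels do not say how far the replicate cultures were kept apart, so the p-values cover only differences among these 9 samples, which may be technical. The RNA came from cultures before implantation, so the values describe cells in dishes and not tumours.

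ERBB receptors are tyrosine kinases of the cell surface that bind EGF-like ligands outside the cell and signal as pairs. EGFR binds EREG, TGFA, HBEGF and BTC. ERBB2 has no known ligand of its own and serves as a partner, and ERBB3 binds neuregulins, has a very weak kinase and passes the signal to PI3K when paired with another member. The ligands are made as membrane proteins and cut free by surface proteases. In colorectal epithelium the pathway drives growth and repair, and EGFR is a target of antibodies used against colorectal cancer.

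Of the 7 genes, 6 had a promoter entry among the RefSeq sequences used (GRCh38.p14), with 8 entries in all, 2 of them for EGFR and 2 for TGFA. The 250 bases before the start are shown for the first EGFR entry and for EREG, because the brightest probe set of each placed all SCP51 arrays above another group. Capitals mark the GC box GGGCGG, read as CCGCCC on the other strand, and the TATA box TATAAA. Both are on the plus strand, at chr7:55018767-55019016 for EGFR and chr4:74364895-74365144 for EREG.
EGFR: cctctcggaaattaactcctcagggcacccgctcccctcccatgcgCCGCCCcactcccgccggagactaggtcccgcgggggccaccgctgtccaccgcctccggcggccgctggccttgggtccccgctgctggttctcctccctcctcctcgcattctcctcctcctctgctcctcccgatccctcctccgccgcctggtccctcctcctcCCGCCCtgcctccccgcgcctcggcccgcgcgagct
EREG: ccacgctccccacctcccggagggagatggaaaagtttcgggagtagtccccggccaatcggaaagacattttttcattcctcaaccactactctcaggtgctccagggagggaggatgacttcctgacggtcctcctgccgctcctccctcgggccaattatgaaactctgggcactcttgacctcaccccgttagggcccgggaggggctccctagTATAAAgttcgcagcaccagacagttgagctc

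The EGFR window is 73.6% G and C and holds 2 GC boxes, no TATA box and no AP-1 motif (TGANTCA). The other EGFR entry, not shown, is 38.8% G and C and holds no GC box, 2 TATA boxes and 2 AP-1 motifs, so the motif content depends on the start site used. The EREG window is 58% G and C and holds 1 TATA box, with no GC box and no AP-1 motif. Searched on both strands, the GC box is present in 42.6%, the TATA box in 10.7% and the AP-1 motif in 6.57% of the 35116 promoter windows of this length, and none of the motifs printed here overlapped. These matches describe the letters only, and the arrays measured nothing at promoters.

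The deposited value of a probe set is its signal, a linear intensity in arbitrary units. Tests used log2 signal in limma, with 1 probe set for each gene (the brightest on average) and Benjamini-Hochberg adjustment over all 13586 genes that passed a filter on low signal. The filter kept a probe set above its array's median signal on at least 3 of the 9 arrays. A gene was called at an adjusted p under 0.05, and values with ± are a mean and SD of log2 signal (n = 3) or a difference and its SE. Of the 28 member probe sets, 18 passed the filter and 10 did not. Both BTC probe sets were among the latter, so 6 of the 7 genes were tested.

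Array medians lay between 41.2 and 44.3, and the values were not rescaled. At the 75th percentile SCP51 replicate 1 was dimmer, with a signal of 112.5 against 123.4 to 130.8 on the other arrays. SCP51 replicate 1 stood apart, with correlations of log2 signal of 0.891 to 0.911 with the other 8 arrays, against 0.945 to 0.979 over the 28 pairs among those. The cells carried epithelial RNA, with EPCAM signals of 2554 to 3184 and 9 of 10 matched colorectal epithelial markers past the filter. The dimmest of these were CDH17 at 12.4 to 50.7, CDX2 at 45.5 to 58.2 and CDX1 at 80 to 106. KRT20, a marker of differentiated colon epithelium, lay below the filter at 16.2 to 35. Of 13 matched fibroblast, endothelial and leukocyte markers, 5 passed the filter, with COL1A1 the brightest at 126 to 172. Passing the filter therefore does not by itself identify a cell type. No marker gene was called in any comparison. Without SCP51 replicate 1, 2 epithelial markers were called higher in SCP51 than in SCP58 and 1 than in the parent. In a bulk culture, fewer cells carrying a transcript and less of it in each cell cannot be told apart.

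1 of the 6 tested genes was called between SCP51 and SCP58. This was the receptor ERBB3, which was 2.54-fold lower in SCP51. Over all genes, 4.09% were called in this comparison, 1.48% higher and 2.61% lower. The median difference of the 6 was -0.22 on the log2 scale, against -0.11 over all genes, and without SCP51 replicate 1 it was -0.14 against -0.05. None of the 6 was called between SCP51 and the parent, where 2.96% of all genes were (1.38% higher, 1.58% lower), or between SCP58 and the parent, where 0.14% were (0.0662% higher, 0.0736% lower). At an unadjusted p under 0.05 the counts were 3, 2 and 1 in the order given. The comparisons share arrays, so their values are not independent of each other.

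Some genes separated groups without being called. All 3 arrays of SCP51 lay on 1 side of the SCP58 arrays for 3 of the 6 genes, EREG above and ERBB3 and HBEGF below, and such separation was found for 25.1% of all genes (7.92% above, 17.2% below). SCP51 was separate from the parent for 2, EGFR above and ERBB3 below, against 28.1% of all genes (9.5% above, 18.5% below). SCP58 was separate from the parent for EREG, below, against 17% (9.42% above, 7.58% below).

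**Figure D1:**
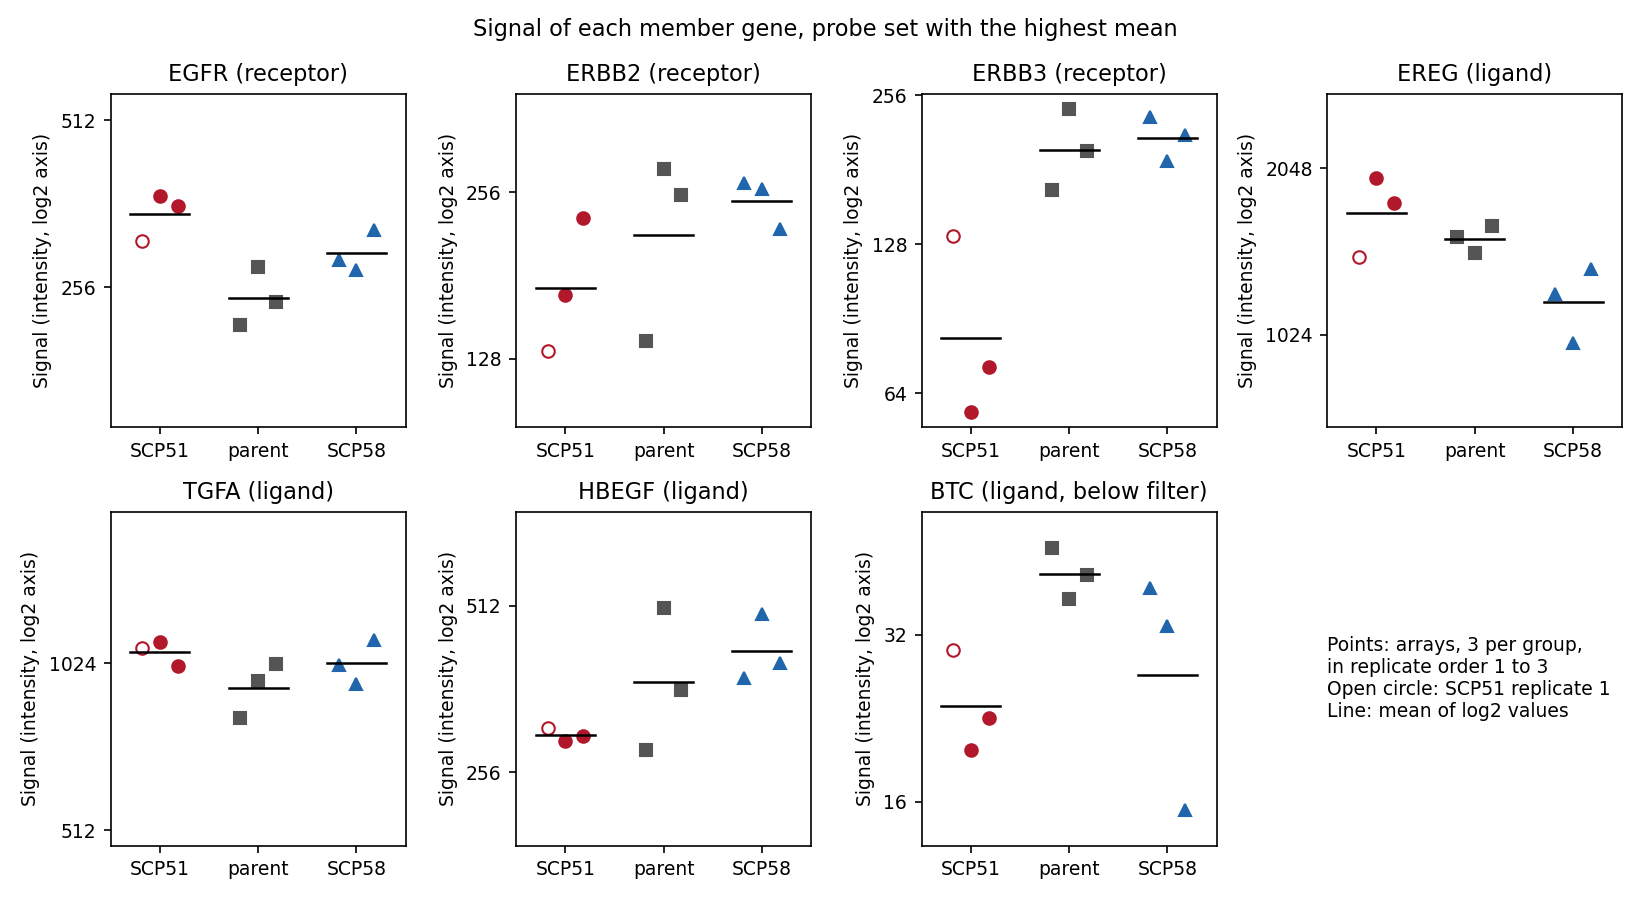
Deposited signal (log2 scale) of the main probe set of each of the 7 genes on the 9 arrays, as points by group with a line at the mean of the 3 log2 values and SCP51 replicate 1 as an open circle. All 3 SCP51 arrays lie below the other 6 for ERBB3, between 58.6 and 133, and BTC lies below the filter on low signal.

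ERBB3, the neuregulin receptor, gave signals of 133, 58.6 and 72.4 on the SCP51 arrays at its brightest probe set (226213_at). The parent arrays gave 165, 240 and 197 and the SCP58 arrays 231, 188 and 213. SCP51 lay below both other groups without overlap, and SCP58 and the parent overlapped. SCP51 replicate 1 was the highest of the SCP51 arrays.

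The mean log2 signal of ERBB3 was 6.37 ± 0.61 in SCP51, 7.63 ± 0.27 in the parent and 7.71 ± 0.15 in SCP58. SCP51 fell by 1.35 ± 0.28 (SE) against SCP58, with a 95% confidence interval of -2.0 to -0.70 and an adjusted p of 0.0398. Against the parent the difference was -1.26 ± 0.28, a 2.4-fold lower signal, with an adjusted p of 0.0571, and it was not called. SCP58 differed from the parent by 0.08 ± 0.28, with an interval of -0.57 to 0.73.

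The call for ERBB3 lay near the threshold. Without SCP51 replicate 1, the difference from SCP58 was -1.69 with an adjusted p of 0.00214, and that from the parent was -1.61 with an adjusted p of 0.00233. Without any 1 of the other 8 arrays, SCP51 replicates 2 and 3 and every parent and SCP58 replicate, the difference from SCP58 lay between -1.43 and -1.10. The adjusted p then rose to between 0.0539 and 0.118 and the call was lost. The call was also lost after quantile normalization (-1.25, limma adjusted p = 0.059) and after centring on the 75th percentile (-1.28, limma adjusted p = 0.0535). With the mean of the ERBB3 probe sets the difference from SCP58 shrank to -0.77, though it was still called. That from the parent shrank to -0.71 and was not called. The size of the ERBB3 difference therefore depends on the probe sets used. The direction was the same in all 19 alternative settings run.

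**Figure D2:**
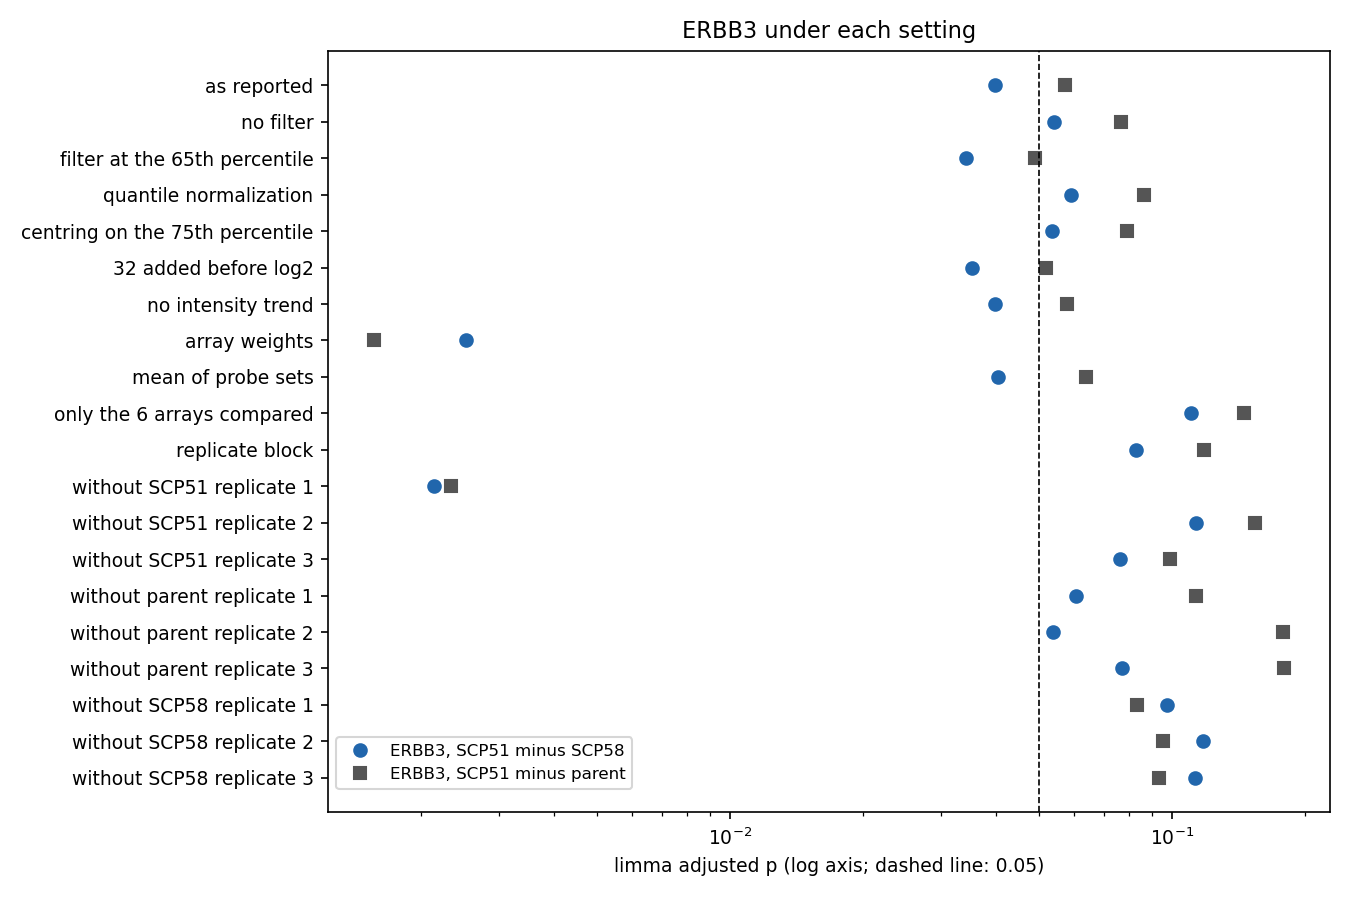
Adjusted p from limma (log axis) for ERBB3 as reported and in the 19 alternative settings, with circles for SCP51 against SCP58, squares for SCP51 against the parent and a dashed line at the threshold of 0.05. Against SCP58, 6 of the 19 pass the threshold, with values from 0.00214 to 0.118, and against the parent 3 pass, with values from 0.00156 to 0.18.

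The other ERBB3 probe sets gave a graded picture. Probe set 202454_s_at gave 51.4, 28.1 and 24.3 in SCP51, 64.2, 89.1 and 65.3 in the parent, and 68.4, 69.4 and 90 in SCP58. Here too SCP51 lay below both groups without overlap, and only 1 SCP51 array was above its array's median. Its difference was -1.20 ± 0.28 from SCP58 and -1.14 ± 0.28 from the parent, with adjusted p of 0.0571 and 0.0869 over the 29132 probe sets tested.

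Probe set 1563253_s_at gave 45.8, 45.6 and 43.9 in SCP51, 47.5, 67.3 and 51.8 in the parent, and 65.4, 61 and 66.6 in SCP58. It again separated SCP51 from both groups, with differences of -0.51 ± 0.14 from SCP58 (adjusted p = 0.0906) and -0.28 ± 0.14 from the parent (adjusted p = 0.332). The remaining probe sets showed no such separation. Probe set 1563252_at lay between 44.3 and 56.5 on all 9 arrays, with a difference of -0.04 ± 0.12 from SCP58, and 215638_at lay below the filter at 10.5 to 14.3. Both lay closer to the array medians than 226213_at, or below them.

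**Figure D3:**
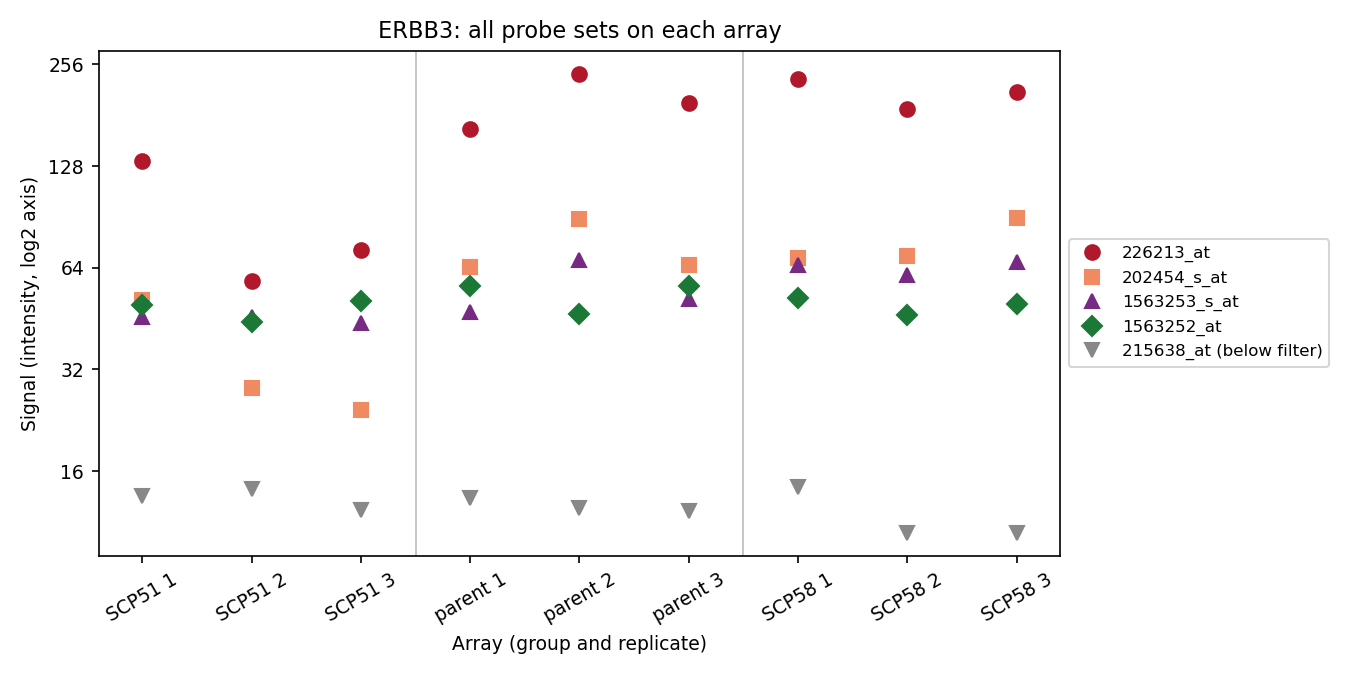
Deposited signal (log2 axis) of the 5 ERBB3 probe sets on the 9 arrays, with arrays along the horizontal axis by group and replicate and 1 marker shape and colour per probe set. In 3 of them the 3 SCP51 arrays lie below the other 6, and in the dimmer 1563252_at the groups overlap.

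By probe set, ERBB3 226213_at was the 1 member called against SCP58 (adjusted p = 0.0436), where 3.35% of all probe sets were called (1.52% higher, 1.83% lower). Against the parent the 1 member called was an EGFR probe set, 201983_s_at, where 1.9% of all were (0.934% higher, 0.965% lower). None was called between SCP58 and the parent, where 0.134% were (0.0515% higher, 0.0824% lower). SCP51 did not overlap SCP58 in 7 of the 18 tested probe sets, 1 above and 6 below, and over all probe sets 23.2% did not overlap (8.95% above, 14.3% below). SCP51 did not overlap the parent in 8, 3 above and 5 below, against 26.1% over all probe sets (9.64% above, 16.5% below). SCP58 and the parent did not overlap in 3, 2 above and 1 below, against 16.3% (8.08% above, 8.27% below).

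EGFR, the receptor of all 4 ligands described here, had its highest mean signal in SCP51 at its brightest probe set and at 1 of the 4 others that passed the filter. The brightest, 224999_at, gave 310, 374 and 358 in SCP51, 219, 278 and 241 in the parent, and 287, 275 and 324 in SCP58. SCP51 lay above the parent without overlap, while SCP58 overlapped both. The difference of SCP51 from the parent was 0.50 ± 0.14 (interval 0.18 to 0.82), a 1.41-fold higher signal, with an adjusted p of 0.105, and from SCP58 it was 0.23 ± 0.14 with an adjusted p of 0.377. The difference from the parent was called after quantile normalization (0.58, adjusted p = 0.0464), after centring on the 75th percentile (0.56, adjusted p = 0.0485) and with array weights (0.58, adjusted p = 0.0187). It was not called in the other 16 of the 19 alternative settings, among them all 9 with an array left out. With the mean of the EGFR probe sets it shrank to 0.30.

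A dimmer EGFR probe set, 201983_s_at, gave 78.3, 114 and 83.9 in SCP51, 45.7, 51.9 and 48.1 in the parent, and 80, 68 and 85 in SCP58. Both clones lay above the parent without overlap. SCP51 rose by 0.90 ± 0.16 against the parent (interval 0.54 to 1.27), a 1.87-fold difference with an adjusted p of 0.029. SCP58 differed from the parent by 0.67 ± 0.16 with an adjusted p of 0.247. The call for SCP51 was lost without SCP51 replicate 2 (adjusted p = 0.0677) and without parent replicate 1, 2 or 3 (0.126, 0.0894 and 0.123), with the difference between 0.74 and 0.95.

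The further EGFR probe sets varied. Probe set 201984_s_at gave 127, 115 and 129 in SCP51, 93.5, 103 and 108 in the parent, and 116, 135 and 127 in SCP58, so that both clones again lay above the parent. Its differences from the parent were 0.28 ± 0.11 for SCP51 and 0.31 ± 0.11 for SCP58, with adjusted p of 0.241 and 0.494. Probe sets 211551_at and 211550_at overlapped in every comparison, with differences of SCP51 from the parent of -0.11 ± 0.12 and -0.07 ± 0.18. The remaining 4 lay below the filter. Among them 210984_x_at gave 218 on SCP51 replicate 1 and 215 on SCP58 replicate 3 and between 21.6 and 31.8 on the other 7 arrays. Its suffix marks probes that can bind unrelated transcripts.

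ERBB2, the partner receptor, was read by 1 probe set that passed the filter, 216836_s_at. It gave 132, 167 and 230 in SCP51, 138, 281 and 252 in the parent, and 265, 259 and 220 in SCP58. All groups overlapped, and parent replicate 1 was close to the lowest SCP51 array. The difference of SCP51 from SCP58 was -0.53 ± 0.29 (interval -1.19 to 0.14, adjusted p = 0.341), that from the parent -0.32 ± 0.29 (adjusted p = 0.561), and SCP58 differed from the parent by 0.21 ± 0.29 (adjusted p = 0.981). The interval leaves room for a difference of over 1 log2 unit below SCP58, so equal levels were not shown.

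**Figure D4:**
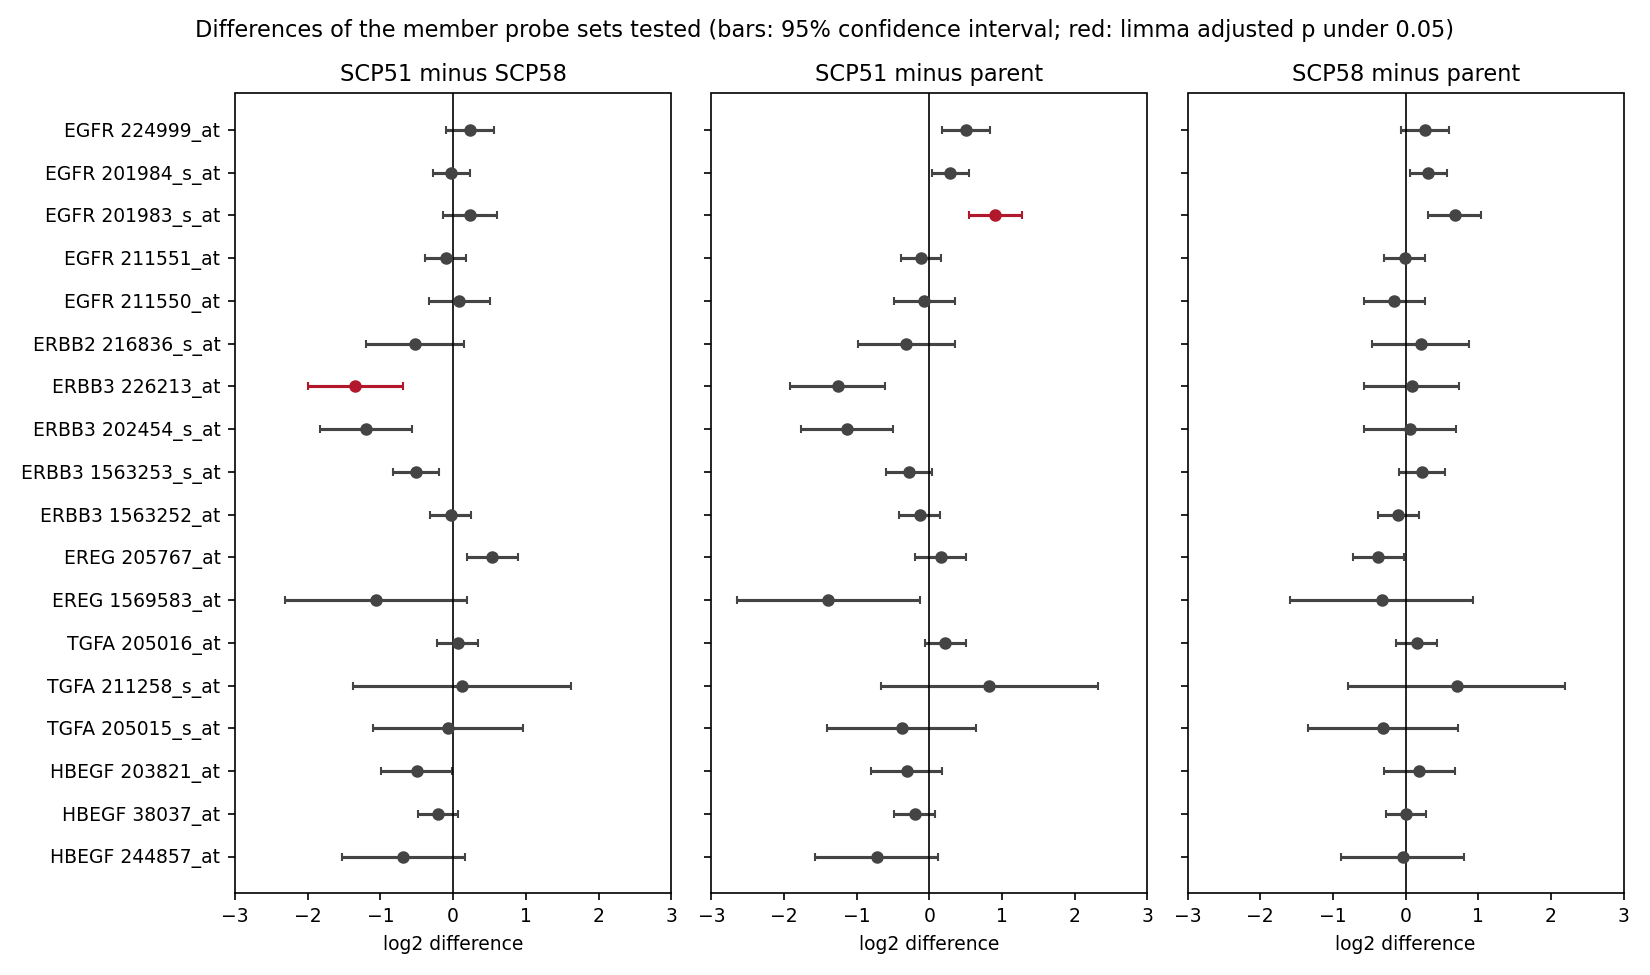
Difference in log2 signal of each of the 18 tested member probe sets, for SCP51 against SCP58, SCP51 against the parent and SCP58 against the parent, with 95% confidence intervals from limma. The called differences are ERBB3 226213_at against SCP58 and EGFR 201983_s_at against the parent.

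Among the ligands, EREG (epiregulin, a ligand of EGFR and ERBB4) was lowest in SCP58 at its brightest probe set. Probe set 205767_at gave 1414, 1966 and 1770 in SCP51, 1537, 1438 and 1607 in the parent, and 1213, 991 and 1345 in SCP58. SCP58 lay below both other groups without overlap, and SCP51 and the parent overlapped. The difference of SCP51 from SCP58 was 0.53 ± 0.15 (interval 0.18 to 0.89), a 1.45-fold higher signal with an adjusted p of 0.0922. SCP58 differed from the parent by -0.38 ± 0.15 (interval -0.73 to -0.03, adjusted p = 0.534) and SCP51 from the parent by 0.16 ± 0.15 (adjusted p = 0.593).

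Without SCP51 replicate 1 the EREG difference between SCP51 and SCP58 was 0.67 and was called (adjusted p = 0.0185). It was also called with quantile normalization (0.60, adjusted p = 0.0327), centring on the 75th percentile (0.60, adjusted p = 0.045) and array weights (0.73, adjusted p = 0.0129). In the other 15 of the 19 alternative settings it was not called.

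The other EREG probe set, 1569583_at, ran the other way. It gave 24, 46.2 and 152 in SCP51, 133, 147 and 155 in the parent, and 143, 104 and 102 in SCP58. SCP51 replicates 1 and 2 lay below all other arrays, while SCP51 replicate 3 lay within the parent's range. The differences of SCP51 were -1.06 ± 0.55 from SCP58 and -1.39 ± 0.55 from the parent, with adjusted p of 0.336 and 0.245. Without SCP51 replicate 3 they were -1.79 and -2.12 and were called (adjusted p = 0.0217 and 0.0111). With the mean of both EREG probe sets, the gene's difference between SCP51 and SCP58 changed sign, to -0.26 with an adjusted p of 0.687, so its direction depends on the probe set.

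TGFA, an EGFR ligand made by many carcinomas, was close to level at its brightest probe set, 205016_at. It gave 1090, 1120 and 1011 in SCP51, 815, 950 and 1019 in the parent, and 1017, 940 and 1130 in SCP58. The groups overlapped in each comparison. SCP51 differed from SCP58 by 0.06 ± 0.12 (interval -0.21 to 0.34) and from the parent by 0.22 ± 0.12 (interval -0.06 to 0.49), with adjusted p of 0.801 and 0.356. The intervals reach no further than 0.49 in either direction.

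The dimmer TGFA probe sets scattered within groups. Probe set 211258_s_at gave 304, 104 and 75.4 in SCP51, 61.7, 88.9 and 78.1 in the parent, and 45.6, 200 and 202 in SCP58. Its SD of log2 signal was 1.05 in SCP51 and 1.24 in SCP58, so that its difference of 0.12 ± 0.66 between them had an interval of -1.37 to 1.62. Probe set 205015_s_at gave 28.2, 107 and 92.2 in SCP51 and between 56.6 and 107 on the other 6 arrays. SCP51 replicate 1 was its lowest array, and without it the difference from SCP58 turned from -0.07 to 0.53 (adjusted p = 0.164).

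HBEGF, a ligand of EGFR and ERBB4 and the diphtheria toxin receptor, had its lowest mean signals in SCP51 at the 3 probe sets that passed the filter. Probe set 203821_at gave 308, 292 and 298 in SCP51, 281, 507 and 361 in the parent, and 379, 495 and 404 in SCP58. SCP51 lay below SCP58 without overlap, and parent replicate 1 lay below all of SCP51. The difference from SCP58 was -0.50 ± 0.21 (interval -0.98 to -0.02), a 1.41-fold lower signal with an adjusted p of 0.217, and that from the parent was -0.31 ± 0.21 with an adjusted p of 0.426.

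Both further HBEGF probe sets that passed the filter also placed every SCP51 array below every SCP58 array and every parent array. Probe set 38037_at gave 183, 183 and 182 in SCP51, 187, 238 and 208 in the parent, and 210, 221 and 203 in SCP58, a difference from SCP58 of -0.21 ± 0.12 (adjusted p = 0.401). Probe set 244857_at gave 16.7, 46.9 and 50.7 in SCP51, between 51.3 and 63.2 in the parent and between 51.5 and 59 in SCP58, a difference of -0.69 ± 0.37 (adjusted p = 0.358). SCP51 replicate 1 set much of the latter. The last probe set, 222076_at, gave 155 on that array and between 14.3 and 25.9 on the other 8, below the filter. At the brightest probe set, no HBEGF difference was called in the 19 alternative settings.

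BTC (betacellulin, a ligand of EGFR and ERBB4) was dim on all arrays. Probe set 241412_at gave 30, 19.8 and 22.7 in SCP51, 45.9, 37.1 and 41.1 in the parent, and 38.8, 33.2 and 15.5 in SCP58. Probe set 207326_at gave 19.5, 14.4 and 12.8 in SCP51, 22, 23.2 and 24.6 in the parent, and 22.4, 25.2 and 22.1 in SCP58. In both, SCP51 lay below the parent without overlap, and only parent replicate 1 was above its array's median, in the first. With no filter on low signal the gene's difference from the parent was -0.79 ± 0.32 with an adjusted p of 0.275.

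The genes whose profile over the 9 arrays was nearest to that of ERBB3 were LINC00623, OSR2 and TFAP2C. Nearness was the root mean square difference of log2 signal after each gene was centred on its own mean, and was 0.185, 0.192 and 0.201 against a median of 0.711 over all genes tested. OSR2, a zinc finger transcription factor, gave 73.7, 46 and 54.1 in SCP51, 132, 140 and 127 in the parent, and 133, 138 and 133 in SCP58. SCP51 did not overlap either group, and OSR2 fell by 1.24 ± 0.16 against SCP58 (adjusted p = 0.00845) and fell by 1.22 ± 0.16 against the parent (adjusted p = 0.00752). TFAP2C, a transcription factor of the AP-2 family, differed from SCP58 by -1.11 ± 0.26 (adjusted p = 0.0549), and LINC00623, a long noncoding RNA, by -1.27 ± 0.30 (adjusted p = 0.0523). These genes were chosen for their likeness to ERBB3, so their direction is a description.

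The wider pathway was read through 8 lists with 98 matched genes, of which 91 passed the filter. Between SCP51 and SCP58, 7 of the 91 were called (7.69%), 4 higher and 3 lower in SCP51. Between SCP51 and the parent, 6 were called (6.59%), 4 higher and 2 lower, and between SCP58 and the parent 1 was called (1.1%), which was higher. The shares over all genes were 4.09%, 2.96% and 0.14%. The lists were chosen with earlier results of these data known, so the higher shares in the lists are no test of the pathway. With single genes called in most lists, the counts describe genes and not whole lists.

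Of the other ERBB family genes, 6 were matched and 2 passed the filter. NRG1, a neuregulin and ligand of ERBB3, gave 150, 163 and 204 in SCP51, 96.4, 54.7 and 86.2 in the parent, and 96.4, 69.4 and 71.4 in SCP58. SCP51 lay above both groups without overlap, and SCP51 was also the group with the lowest ERBB3 signals. NRG1 rose by 1.13 ± 0.23 against SCP58 (adjusted p = 0.0381) and by 1.15 ± 0.23 against the parent (adjusted p = 0.0418). The first call was lost without SCP51 replicate 2 or 3, parent replicate 3, or SCP58 replicate 2 or 3, with adjusted p from 0.0687 to 0.147. The second was lost without any of these and without parent replicate 1 or 2, with adjusted p from 0.065 to 0.115. With the mean of the NRG1 probe sets the differences were 0.44 and 0.43 (adjusted p = 0.0908 and 0.116). Both calls were also lost with no filter (0.0529 and 0.0569) and with the 6 compared arrays alone (0.0587 and 0.0995). EGF itself lay between 39.8 and 48.4 on all 9 arrays, and ERBB4 and NRG2 to NRG4 lay below the filter.

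Among the 12 genes of ligand shedding, all tested, 1 was called, and the median difference from SCP58 was -0.07 against -0.11 over all genes. RHBDF1, an inactive rhomboid that guides the protease ADAM17 to the surface, gave 115, 93.4 and 104 in SCP51, 101, 125 and 116 in the parent, and 172, 218 and 167 in SCP58. SCP58 stood above both other groups without overlap. RHBDF1 fell by 0.83 ± 0.15 in SCP51 against SCP58 (adjusted p = 0.0221). Leaving out SCP51 replicate 2, parent replicate 3 or SCP58 replicate 2 or 3 ended the call, with adjusted p from 0.0535 to 0.0892, as did the use of the 6 compared arrays alone (0.0775).

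All 15 receptor-proximal adaptors were tested, and 1 was called. SHC1, the adaptor that links phosphorylated receptors to RAS, gave 2377, 2642 and 2501 in SCP51, 1581, 1536 and 1752 in the parent, and 2023, 1931 and 1993 in SCP58. The 3 groups did not overlap, with SCP58 between the others. SHC1 rose by 0.63 ± 0.08 in SCP51 against the parent (adjusted p = 0.00752), a call kept in all 19 alternative settings, and differed from SCP58 by 0.34 ± 0.08 (adjusted p = 0.0616).

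Of the 14 receptor inhibitors and ubiquitin ligases, 13 were tested and 1 was called. LRIG1, a membrane protein that lowers ERBB receptor levels, gave 36.7, 37.7 and 31 in SCP51, 52.8, 66.9 and 67 in the parent, and 41.3, 39.7 and 54.4 in SCP58. LRIG1 fell by 0.82 ± 0.17 in SCP51 against the parent (adjusted p = 0.0407), and SCP51 overlapped neither group. All 3 SCP51 arrays were under their array medians, so LRIG1 passed the filter through the other groups, and the size of its difference rests on dim SCP51 signals. The call was lost without SCP51 replicate 2 or 3, any parent replicate, or SCP58 replicate 1 or 2, with adjusted p from 0.0558 to 0.156. It was also lost after centring on the 75th percentile (0.0529) and with the 6 compared arrays alone (0.0739).

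Of the 16 genes of receptor endocytosis and sorting, all tested, 3 differed above 0 between SCP51 and SCP58 and 13 below, with a median of -0.31 against -0.11 over all genes. Without SCP51 replicate 1 these were 5 above and 11 below, with a median of -0.17 against -0.05 over all genes. EPN3, an epsin of clathrin-coated pits, gave 40.9, 20.4 and 22.7 in SCP51, 94.3, 112 and 103 in the parent, and 134, 94.6 and 109 in SCP58. SCP51 lay below both groups without overlap. All 3 SCP51 arrays were under their array medians, so EPN3 passed the filter through the other groups, and the size of its difference rests on dim SCP51 signals. EPN3 fell by 2.06 ± 0.25 against SCP58 (adjusted p = 0.00676) and fell by 1.95 ± 0.25 against the parent (adjusted p = 0.00723), and both calls were kept in all 19 alternative settings. With 32 added to the signal before log2 the differences were -1.27 and -1.18.

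TOLLIP, an adaptor of ubiquitin-dependent sorting, gave 135, 192 and 182 in SCP51, 110, 117 and 102 in the parent, and 85.2, 103 and 109 in SCP58. TOLLIP rose by 0.77 ± 0.16 in SCP51 against SCP58 (adjusted p = 0.0385) and SCP51 overlapped neither group. The call was lost without any 1 of the 8 arrays other than SCP51 replicate 1, with adjusted p from 0.0576 to 0.123. The mean of its probe sets gave 0.58 (adjusted p = 0.229), and the call was also lost with no filter (0.0561) and with the 6 compared arrays alone (0.122).

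**Figure D5:**
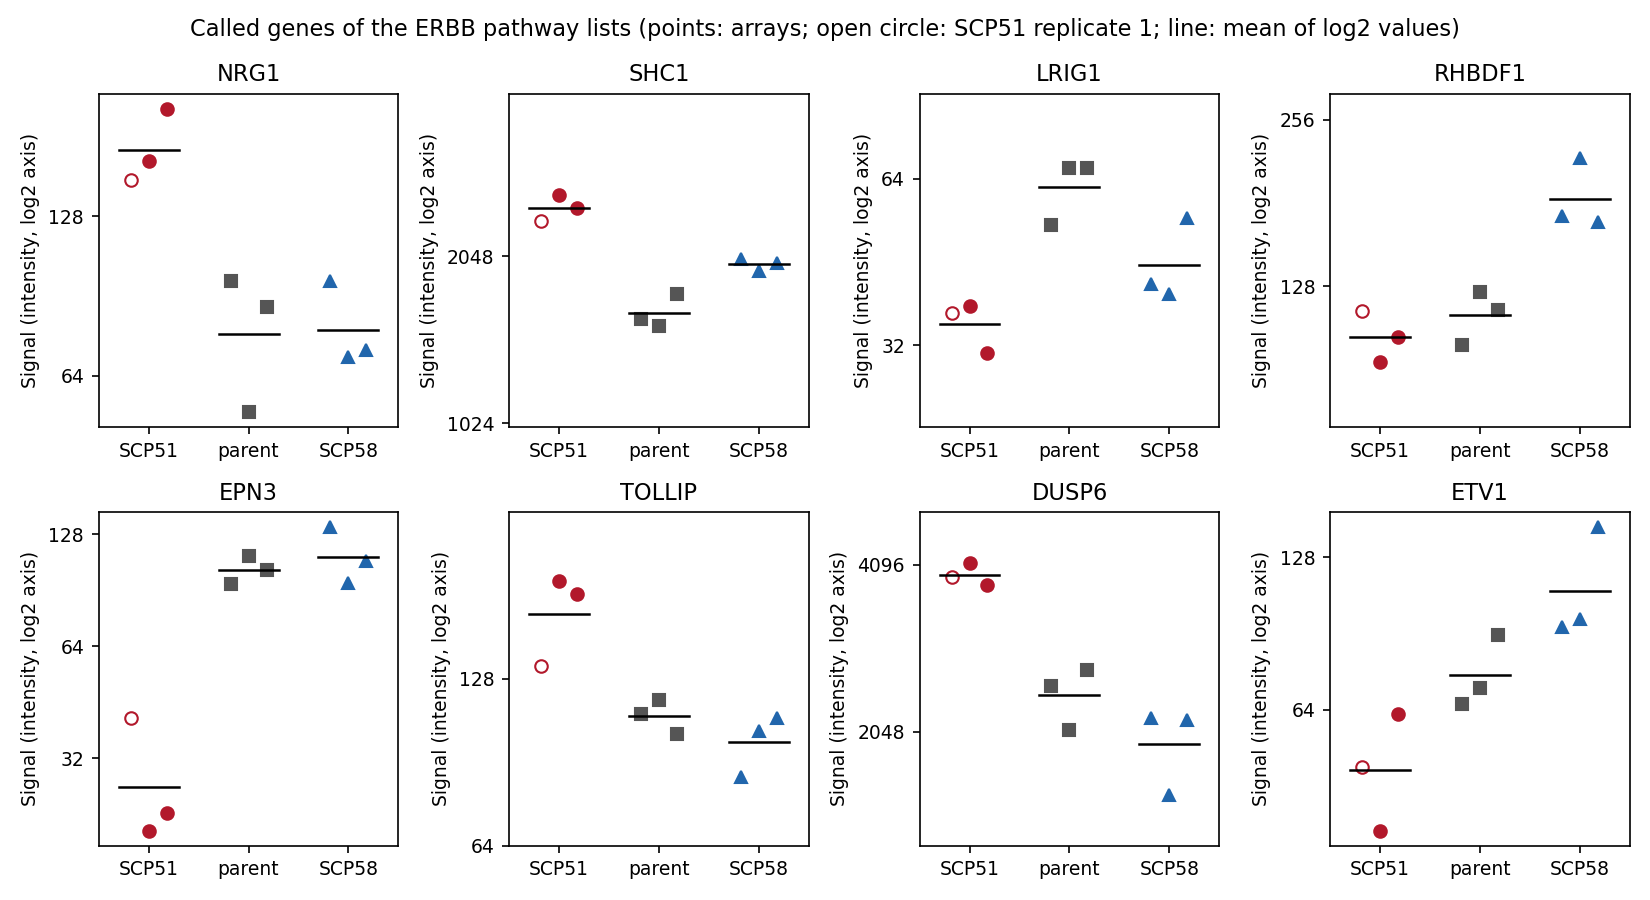
Deposited signal (log2 scale) of 8 pathway genes called in at least 1 comparison, all but INPP4B, as points for the 9 arrays by group with a line at the mean of the log2 values and SCP51 replicate 1 as an open circle. EPN3 shows the 3 SCP51 arrays at 20.4 to 40.9 under the other 6, and SHC1 shows SCP58 between the parent and SCP51.

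At the brightest probe set of each gene, no gene of the RAS-RAF-MEK-ERK cascade was called in any comparison, with 7 of 8 matched genes tested. MAP2K1, which encodes the kinase MEK1 and was the brightest of them, lay between 1267 and 1625 on all 9 arrays, with a difference of -0.13 between SCP51 and SCP58 (adjusted p = 0.559). SHOC2, a scaffold that helps to activate RAF kinases, differed by -0.49 (adjusted p = 0.267). Of the PI3K-AKT arm, 7 of 8 were tested and 1 was called. INPP4B, a phosphatase of PI3K products, gave 254 to 294 in SCP51, 47.4 to 65 in the parent and 133 to 161 in SCP58, and it rose by 0.88 ± 0.15 in SCP51 against SCP58 (adjusted p = 0.0189), by 2.29 ± 0.15 against the parent (adjusted p = 0.000348) and by 1.41 ± 0.15 in SCP58 against the parent (adjusted p = 0.00884). The first INPP4B call was lost without SCP51 replicate 2 or SCP58 replicate 2 or 3 (adjusted p from 0.0552 to 0.0807) and with the 6 compared arrays alone (0.0533), and the last without parent replicate 1 or 2 or SCP58 replicate 3 (0.0521 to 0.0818).

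Of the 19 genes known to respond to ERK, all tested, 2 were called, in opposite directions against SCP58, and the median difference was -0.14 against -0.11 over all genes. Without SCP51 replicate 1 it was -0.03 against -0.05. DUSP6, the phosphatase that turns ERK off, gave 3891, 4129 and 3772 in SCP51, 2474, 2063 and 2649 in the parent, and 2169, 1577 and 2149 in SCP58. SCP51 lay above both groups without overlap. DUSP6 rose by 1.01 ± 0.14 against SCP58 (adjusted p = 0.0089), kept in all 19 alternative settings, and by 0.72 ± 0.14 against the parent (adjusted p = 0.0372). The latter was lost without SCP51 replicate 2 or 3, any parent replicate or SCP58 replicate 3, with adjusted p from 0.0541 to 0.125. It was also lost with no filter (0.050001) and with the mean of probe sets (0.79, adjusted p = 0.0634).

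ETV1, an ETS transcription factor, gave 49.5, 37 and 62.9 in SCP51, 65.8, 70.8 and 90 in the parent, and 93.4, 96.6 and 147 in SCP58. Each group lay above the one before it without overlap. ETV1 fell by 1.17 ± 0.24 in SCP51 against SCP58 (adjusted p = 0.037). The call was lost without SCP51 replicate 2 or any parent or SCP58 replicate, with adjusted p from 0.0589 to 0.113, and the mean of its probe sets gave -0.54 (adjusted p = 0.125), and with the 6 compared arrays alone the adjusted p was 0.105.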

How the data were processed

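Deposited values are linear intensities per probe set, which the authors obtained with GCOS 1.4 (source: per the submitters' processing notes). Scaling target, background method and probe summary were not given in the sources used here, and detection calls were not used. From the deposited intensities, the 514 values below 1 were raised to 1 before log2, without rescaling. All 62 control probe sets were excluded. Of the others, 41091 carried 1 gene symbol, 1801 several and 11721 none, and 99.9% of symbols matched a RefSeq table (GRCh38.p14). The filter left 29132 probe sets and 13586 genes. All 9 arrays entered 1 limma 3.58.1 fit (R 4.3.3) of group means, with variances following an intensity trend. The code was checked on simulated data with the same spread on every array. That check does not cover an array that stands apart, such as SCP51 replicate 1. Tests are two-sided, and each adjusted p comes from this limma fit. The number of arrays limits the precision. Same-numbered replicates did not deviate together (1 of 9 correlations over 0.1), so no block was used. Named genes are all members, the called genes of each pathway list (up to 3 a comparison, or the 2 brightest where none was called) and the 3 genes nearest to a called member. Members and lists were chosen with earlier results of these data known. Alternatives covered the filter, scaling, array weights, probe choice, offset, arrays used, the block and each array left out. The gene lists without SCP51 replicate 1 were added after the values were seen.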

Additional observations from a re-analysis of the deposited data

How the results depend on the processing

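The direction of the ERBB3 difference between SCP51 and SCP58 was kept in all 19 alternatives, and 6 of them called it. Quantile normalization and centring on the 75th percentile lost this call and gained one for EREG, so the gene count stayed at 1. The counts of called member genes and probe sets moved as follows. Between SCP51 and SCP58 (1 gene, 1 probe set), no filter and the 6 compared arrays alone gave 0 and 0, array weights gave 2 and 4, and arrays left out gave 0 to 2 genes and 0 to 3 probe sets. Between SCP51 and the parent (0 genes, 1 probe set), the stricter filter at the 65th percentile, quantile normalization and centring on the 75th percentile gave 1 gene each. Array weights gave 2 genes and 4 probe sets, no filter and the 6 arrays 0 probe sets, and arrays left out 0 to 1 genes and 0 to 3 probe sets. Between SCP58 and the parent (0 and 0), array weights gave 1 gene and 3 probe sets, and arrays left out 0 genes. Array weights give less weight to arrays that scatter.

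With the replicate number as a block, the calls were 0 genes and 0 probe sets between SCP51 and SCP58 and 0 and 0 between SCP51 and the parent, and ERBB3 kept -1.35 with an adjusted p of 0.083. Of the pathway gene calls, the block ended 8, with adjusted p from 0.058 to 0.0983: NRG1 and INPP4B in 2 comparisons each, and RHBDF1, LRIG1, TOLLIP and DUSP6 (against the parent) in 1 each. Over all genes the block gave 210, 167 and 6 calls in place of 555, 402 and 19.

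Over all genes, array weights gave 1527, 1356 and 1351 calls and the 6 compared arrays 134, 151 and 31. Without SCP51 replicate 1 there were 1189, 726 and 75, and arrays left out gave as few as 137, 122 and 0.

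Of the differences, 49 values changed sign under an alternative, and none of them had been called. With the mean of probe sets, EREG gave -0.26 between SCP51 and SCP58 and -0.62 against the parent, and NRG1 gave -0.015 between SCP58 and the parent. With array weights, EPN3 (-0.0035) and NRG1 (-0.20) changed sign between SCP58 and the parent. So did 1563252_at (0.032), 205015_s_at (0.29), 211258_s_at (-0.90) and 211551_at (0.013) between SCP51 and SCP58, and 205015_s_at (0.10) and 211550_at (0.073) against the parent. Scaling turned 1563252_at (quantile 0.00015, centring 0.029) and 201984_s_at (quantile 0.051, centring 0.039) between SCP51 and SCP58 and 38037_at (centring -0.0016) between SCP58 and the parent. Adding 32 turned 205015_s_at to 0.0076. The cause of these changes was not tested.

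With single arrays left out, the differences that changed sign ranged as follows. Between SCP51 and SCP58 the range was -0.080 to 0.026 for 1563252_at, -0.085 to 0.026 for 201984_s_at, -0.43 to 0.53 for 205015_s_at, -0.59 to 0.54 for 211258_s_at and -0.10 to 0.20 for 211550_at. Between SCP51 and the parent it was -0.74 to 0.22 for 205015_s_at, -0.21 to 0.027 for 211550_at and -0.28 to 0.0067 for SHOC2. Between SCP58 and the parent it was -0.021 to 0.23 for EPN3, -0.11 to 0.41 for ERBB2, -0.051 to 0.22 for ERBB3, -0.016 to 0.41 for HBEGF, -0.046 to 0.10 for MAP2K1 and -0.22 to 0.19 for NRG1. For the probe sets it was -0.065 to 0.22 for 202454_s_at, -0.27 to 0.027 for 211550_at, -0.072 to 0.070 for 211551_at, -0.11 to 0.042 for 244857_at and -0.077 to 0.10 for 38037_at. LRIG1 had no value under the stricter filter.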

Other observations

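Single arrays set some member probe sets. A probe set was counted where 1 array lay at least 1 log2 unit beyond the next of the 9, a limit chosen after the values were seen. This held for 3 of the 28 member probe sets (10.7%), and for 5.75% of all probe sets. In each of the 3 the array was SCP51 replicate 1: lowest for TGFA 205015_s_at and HBEGF 244857_at, highest for HBEGF 222076_at. Over all probe sets this array accounted for 2762 of the 3142 such cases, and no other array for more than 121.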
